A study of Mus musculus with 6 samples.

Results

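Receptors for bone morphogenetic proteins (BMPs), activins and transforming growth factor beta (TGF-beta) were followed through 3 mouse auditory brainstem nuclei at 2 postnatal ages. The group held 10 receptor genes of 18193 genes named on the arrays. Of these, 6 encode type I receptors (Bmpr1a, Bmpr1b, Acvr1, Acvr1b, Acvrl1 and Tgfbr1) and 4 encode type II receptors (Bmpr2, Acvr2a, Acvr2b and Tgfbr2). They were taken by gene name through the platform annotation, by a rule that uses no measured value, although earlier results of these data were known when the group was chosen. The 10 genes had 30 probe sets of their own, and each gene is represented by its probe set with the highest mean. All 10 genes passed the filter on low values, as did 26 of their 30 probe sets.

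Tissue came from male C57BL/6J mice with no genetic change or treatment. The groups at P14 (postnatal day 14) were the VCN (ventral cochlear nucleus), the LSO (lateral superior olive) and the MNTB (medial nucleus of the trapezoid body), each pooled from 3 animals. The groups at P3 (postnatal day 3) were the same nuclei, each pooled from 6 animals. Every combination of nucleus and age was hybridised to 1 Affymetrix expression array, so no combination was repeated. Expression is given per probe set on the log2 scale, and a difference of 1 is a factor of 2.

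These receptors are serine/threonine kinases that work in complexes of both types. A ligand brings them together, the type II receptor phosphorylates the type I receptor, and the type I receptor phosphorylates Smad proteins, which enter the nucleus and regulate transcription. Bmpr1a, Bmpr1b, Acvr1 and Acvrl1 act mainly through Smad1, Smad5 and Smad9, whereas Acvr1b and Tgfbr1 act through Smad2 and Smad3. In mice, BMP receptors in the MNTB are known to be needed for growth of the calyx of Held, the large synapse that VCN axons form there.

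RefSeq windows before the start site were found for 9 of the 10 genes and not for Acvrl1. Those of Acvr2a and Acvr1b, a type II and a type I activin receptor that were lower at P14, are shown with that of Tgfbr2, which was higher. The windows lie on GRCm38.p6 at chr2:48813859-48814108 (plus strand) for Acvr2a, chr15:101173822-101174071 (plus strand) for Acvr1b and chr9:116175364-116175613 (minus strand) for Tgfbr2. Each is 250 bases long and runs 5′ to 3′ up to the start. Capitals mark GC boxes, read as GGGCGG or, on the other strand, CCGCCC, with overlapping matches counted.
Acvr2a: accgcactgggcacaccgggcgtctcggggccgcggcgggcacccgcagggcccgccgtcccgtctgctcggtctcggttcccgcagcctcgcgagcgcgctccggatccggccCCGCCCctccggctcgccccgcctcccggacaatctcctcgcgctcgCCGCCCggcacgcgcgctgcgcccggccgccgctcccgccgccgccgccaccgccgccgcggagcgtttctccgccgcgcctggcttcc
Acvr1b: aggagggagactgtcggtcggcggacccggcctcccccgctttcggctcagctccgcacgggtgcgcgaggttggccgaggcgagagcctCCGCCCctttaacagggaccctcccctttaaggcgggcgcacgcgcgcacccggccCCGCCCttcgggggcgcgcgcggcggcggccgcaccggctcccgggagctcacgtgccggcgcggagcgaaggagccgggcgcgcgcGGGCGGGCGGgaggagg
Tgfbr2: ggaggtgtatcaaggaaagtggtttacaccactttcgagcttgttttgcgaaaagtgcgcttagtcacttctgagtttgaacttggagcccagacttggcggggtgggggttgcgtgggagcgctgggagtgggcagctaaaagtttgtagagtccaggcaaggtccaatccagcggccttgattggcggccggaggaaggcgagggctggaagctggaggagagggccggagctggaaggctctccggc
The Acvr2a window held 49 CpG dinucleotides and 2 GC boxes. The Acvr1b window held 42 CpG dinucleotides and 4 GC boxes, of which the last pair overlap. The Tgfbr2 window held 12 CpG dinucleotides and no GC box, nor did any of these windows hold the palindrome GGCGCC or the letters TATAAA on either strand. Over all 32851 RefSeq windows the median was 6 CpG dinucleotides, and 32.7% held a GC box, 9.59% the palindrome and 12.4% TATAAA or TTTATA. The other receptors varied as well. Acvr1, which did not pass for age, had 46 CpG dinucleotides and 6 GC boxes, whereas Acvr2b, which was lower at P14, had 24 and 3. The palindrome stood once each in the windows of Bmpr1a, which was lower, of Bmpr2, which did not pass, and in 1 window of Tgfbr1, which did not pass either. These matches describe the letters of the windows and no binding was measured.

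The 6 arrays had medians of 6.27 to 6.31. The 3' to 5' difference of the Gapdh probe sets, which depends on RNA and amplification quality, was 1.06 to 1.11 at P14 and 1.21 to 1.41 at P3. This measure, the pool size and age changed together and cannot be told apart. Slc6a5, the glycine transporter of inhibitory terminals, read 13.02 in MNTB, 12.22 in LSO and 10.74 in VCN at P14, and 12.50, 11.30 and 10.89 in the same nuclei at P3. Slc17a6, a vesicular glutamate transporter, ran the other way, at 7.81 in MNTB, 9.80 in LSO and 11.04 in VCN at P14 and at 8.96, 9.96 and 11.06 at P3. Ttr, a choroid plexus gene, read 12.58 on the VCN P14 array and 6.61 to 6.93 on the other arrays. Otx2, of the same marker list, read 6.52 on the VCN P14 array and 9.34 on the VCN P3 array. On the LSO and MNTB arrays it read 3.04 to 3.34. Folr1 read 6.26 on VCN P14 and 5.52 on VCN P3, against 4.76 to 5.39 on the LSO and MNTB arrays. Kl and Clic6 read 4.62 and 4.44 on VCN P3, the lowest of the 6 arrays, and 4.98 and 5.48 on VCN P14, the highest. The lead of Kl was narrow, with 4.96 on MNTB P3. Ttr, Folr1, Clic6 and Kl were thus highest on the VCN P14 array, by far the most for Ttr. Otx2 set both VCN arrays apart, and the listed genes did not move together on VCN P3.

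The first comparison asks how receptor expression differs between P14 and P3. At P14, Acvr2a, Acvr2b, Acvr1b and Bmpr1a were lower and Acvrl1 and Tgfbr2 were higher in all 3 nuclei. Acvr1, Bmpr1b, Bmpr2 and Tgfbr1 did not pass the test. Thus 6 of 10 receptor genes passed (limma with nucleus as a term, Benjamini-Hochberg adjustment over 12958 tested genes, threshold 0.05), against 41.0% of all tested genes. The 2 that were higher compare with 23.4% of tested genes higher at P14, and the 4 that were lower with 17.7% lower. The ages did not overlap in 6 of the 10 genes, as in 53.6% of tested genes. With so many genes changing with age, these counts do not set the receptors apart from other genes. The median age difference was -0.01 over the receptors and 0.03 over all tested genes. Among type I receptors 3 of 6 passed, and among type II receptors 3 of 4. As no combination was repeated, p-values measure how evenly an age difference was repeated over nuclei, not over animals. In tissue samples such as these, fewer cells of a type and less RNA per cell cannot be told apart.

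**Figure D1:**
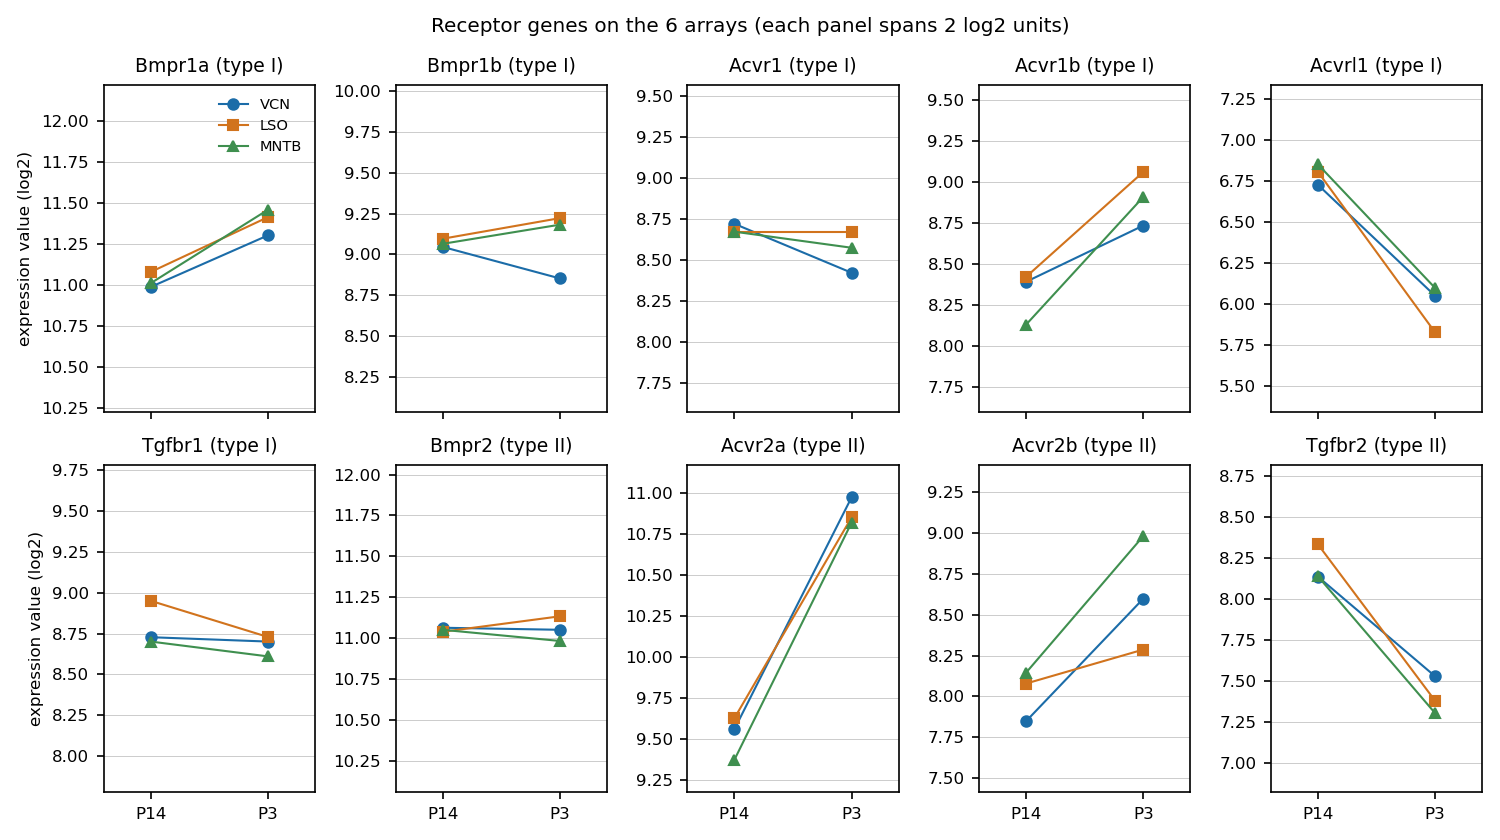
Expression values (log2) of the 10 receptor genes, with P14 left and P3 right in each panel and 1 line per nucleus, VCN in blue circles, LSO in orange squares and MNTB in green triangles. Every point is 1 array; Acvr2a has the steepest lines, with P14 values of 9.37 to 9.63 and P3 values of 10.82 to 10.98.

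Among the type II receptors, Acvr2a, which binds activins, myostatin and several BMPs, had the largest age difference of the 10 genes. VCN, LSO and MNTB had 9.56, 9.63 and 9.37 at P14, against 10.98, 10.85 and 10.82 at P3. All P14 arrays were low and all P3 arrays high, and the closest pair of the 2 ages was more than 1 log2 unit apart. Acvr2a thus averaged 9.52 ± 0.13 at P14 and 10.88 ± 0.08 at P3 (SD over 3 nuclei). The fitted difference was -1.36 ± 0.09 (SE), a level at P14 of 0.388 times that at P3 (adjusted p = 0.000441). Of all tested genes, 1.61% had a larger fall. The second Acvr2a probe set was lower by a smaller amount, at -0.70 (adjusted p over probe sets = 0.00351). A further probe set that the annotation shares between Acvr2a and Orc4 had 5.74, 5.51 and 5.47 at P14 in VCN, LSO and MNTB, against 6.74, 5.91 and 6.25 at P3, and it cannot be given to 1 gene.

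Acvr2b, the close relative of Acvr2a with overlapping ligands, had 7.85, 8.08 and 8.15 at P14 in VCN, LSO and MNTB, against 8.60, 8.29 and 8.98 at P3. The P14 arrays were lower in each nucleus, but the LSO pair differed by only -0.21, against -0.75 in VCN and -0.83 in MNTB. The fitted difference was -0.60 ± 0.15 (SE, adjusted p = 0.0252). One of the other Acvr2b probe sets was also lower, at -0.57 (adjusted p = 0.0287), and the other missed the threshold at -0.42 (adjusted p = 0.0698). The call for Acvr2b rests on MNTB and VCN. Its adjusted p was 0.131 without the MNTB P14 array, 0.136 without the MNTB P3 array, 0.0686 without VCN P14 and 0.072 without VCN P3, and it was 0.0636 for the median of its probe sets.

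Tgfbr2, the type II receptor for TGF-beta ligands, moved the opposite way. It had 8.14, 8.34 and 8.14 at P14 in VCN, LSO and MNTB, against 7.53, 7.38 and 7.30 at P3. Every P14 array was above every P3 array, and the LSO difference of 0.96 exceeded those of VCN (0.61) and MNTB (0.84). The fitted difference was 0.80 ± 0.12 (SE), or 1.74-fold (adjusted p = 0.0045). This result belongs to 1 probe set. The second tested set of Tgfbr2 gave 0.22 (adjusted p = 0.299), and the median of the gene's probe sets gave 0.22 (adjusted p = 0.267). The remaining set, at 2.78 to 4.34, lay within the range of the unspiked control probe sets (2.84 to 4.42) or below it.

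Bmpr2, the type II receptor of the BMP branch, showed the narrowest spread of the 10 genes. It had 11.06, 11.04 and 11.05 at P14, against 11.05, 11.13 and 10.98 at P3 in VCN, LSO and MNTB. The ages overlapped. The age difference of Bmpr2 was -0.0046 with a 95% interval of -0.18 to 0.17 (adjusted p = 0.967), so this interval leaves out falls of the size measured for Acvr2a and rises of the size measured for Tgfbr2.

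Among the type I receptors, Bmpr1a, which takes up BMP2 and BMP4 signals in many tissues, had 10.99, 11.08 and 11.01 at P14 in VCN, LSO and MNTB, against 11.30, 11.41 and 11.46 at P3. The ages did not overlap, and the differences in the nuclei lay close together, between -0.45 and -0.32. The fitted fall was small, at -0.37 ± 0.07 (SE), a level at P14 of 0.776 times that at P3 (adjusted p = 0.00915). All 4 tested Bmpr1a probe sets were lower and passed, with differences of -0.47 to -0.37. The adjusted p of Bmpr1a rose above the threshold without the MNTB P14 array (0.0789) or the MNTB P3 array (0.0835), with a difference of -0.33 in both.

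Acvr1b, the type I receptor for activins and Nodal, had 8.39, 8.42 and 8.13 at P14 in VCN, LSO and MNTB, against 8.74, 9.06 and 8.91 at P3. The ages did not overlap, with the smallest gap in VCN. The fitted difference was -0.59 ± 0.12 (SE, adjusted p = 0.0129). The other Acvr1b probe set gave -0.12 (adjusted p = 0.498), with 6.48 to 6.69 at P14 and 6.69 to 6.73 at P3. The adjusted p of Acvr1b was between 0.0645 and 0.0827 when an LSO or MNTB array was left out, and 0.0528 for the median of its probe sets.

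Acvrl1 is a type I receptor for BMP9 and BMP10 known mainly from endothelial cells. It had 6.73, 6.81 and 6.85 at P14 in VCN, LSO and MNTB, against 6.05, 5.83 and 6.10 at P3. All P14 arrays were above all P3 arrays. The fitted difference was 0.81 ± 0.13 (SE), or 1.75-fold (adjusted p = 0.00513). The second Acvrl1 probe set was higher too, by 0.74 (adjusted p = 0.0123).

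The other type I receptors did not pass. Tgfbr1, the partner of Tgfbr2, had 8.73, 8.95 and 8.70 at P14 in VCN, LSO and MNTB, against 8.70, 8.73 and 8.61 at P3, an age difference of 0.11 with a 95% interval of -0.14 to 0.36 (adjusted p = 0.416). Each nucleus was higher at P14, but the ages overlapped. Acvr1 had 8.72, 8.67 and 8.67 at P14, against 8.42, 8.67 and 8.57 at P3, a difference of 0.13 with an interval of -0.14 to 0.40 (adjusted p = 0.379). Its LSO values at the 2 ages were equal as deposited. Such ties between the LSO arrays occurred in 3.65% of all probe sets, and what left them was not tested. Bmpr1b, which with Bmpr1a transmits BMP signals in neural tissue, had 9.05, 9.10 and 9.06 at P14, against 8.85, 9.22 and 9.18 at P3, a difference of -0.02 with an interval of -0.29 to 0.26 (adjusted p = 0.917). Bmpr1b was higher at P14 in VCN and lower in LSO and MNTB. The intervals of Tgfbr1, Acvr1 and Bmpr1b leave room for age differences of up to 0.40 in size and leave out rises of the size measured for Acvrl1.

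**Figure D2:**
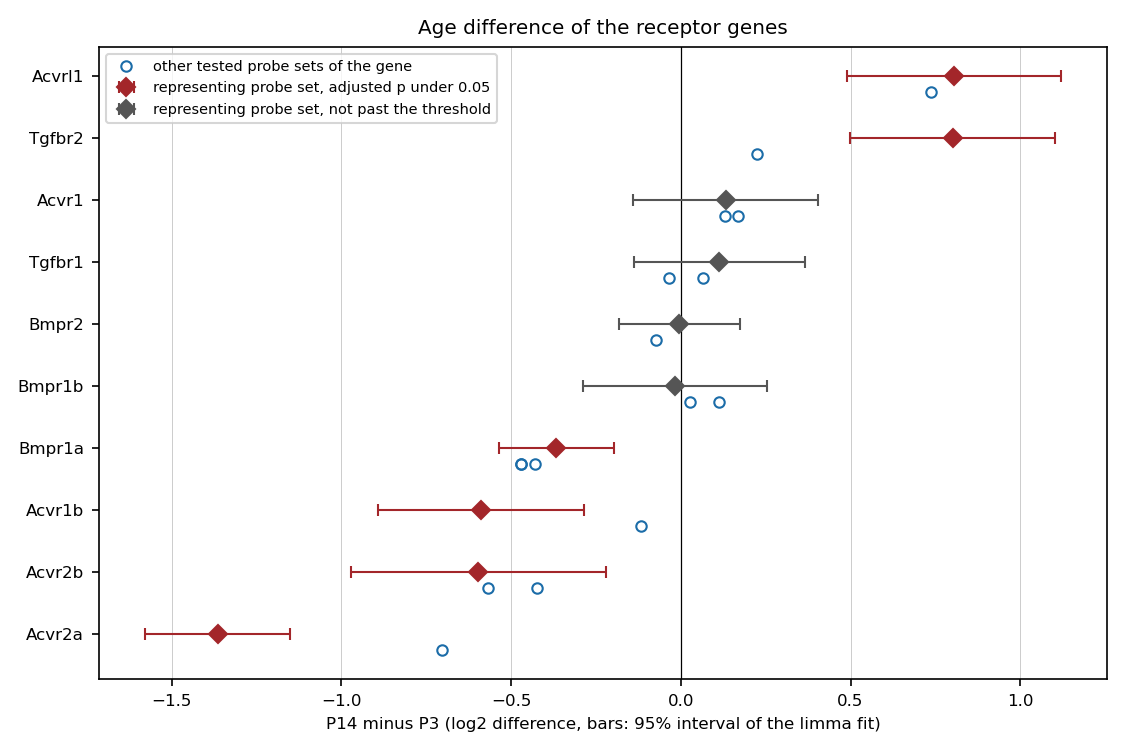
Age difference (P14 minus P3, log2) of each receptor gene, sorted by size. Diamonds with bars are the representing probe sets with 95% intervals, red where adjusted p was under 0.05, and open circles are the other tested probe sets of the same gene; the circles of Acvr1b, Tgfbr2 and Acvr2a lie far from their diamonds, at -0.12, 0.22 and -0.70.

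Counted over probe sets, 12 of 26 tested receptor probe sets passed for age, 3 higher and 9 lower at P14, against 41.2% of all 27000 tested probe sets. Probe sets of 1 gene share its transcripts and are not replicates. No receptor gene had 1 probe set that passed as higher and another that passed as lower. Leaving out the MNTB array of either age reduced the count of receptor genes that passed to 3, namely Acvr2a, Acvrl1 and Tgfbr2, which also passed without each of the other arrays.

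The second comparison asks whether the nuclei differ in their receptors. No receptor gene passed in any of the 3 contrasts (limma with age as a term, 2 ages per nucleus). This was 0 of 10 for MNTB minus LSO, against 0.162% of tested genes, 0 of 10 for MNTB minus VCN, against 0.602%, and 0 of 10 for VCN minus LSO, against 0.370%. At an unadjusted p under 0.05 the count was also 0 in each contrast. The lowest unadjusted p of limma was 0.0898, 0.121 and 0.175 in the same order. A count of 0 among 10 genes lies near these shares.

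Among the representing sets the largest contrasts belonged to Acvr2b, which read highest in MNTB at both ages. It exceeded LSO by 0.38 with a 95% interval of -0.08 to 0.84, and VCN by 0.34 with an interval of -0.12 to 0.80. The MNTB minus LSO difference of Acvr2b was 0.07 at P14 and 0.69 at P3. These values are from its representing set. Another Acvr2b set read highest in VCN at P3, at 7.12 against 6.78 in MNTB. Tgfbr1 was lowest in MNTB and highest in LSO at both ages, with MNTB minus LSO at -0.18 (-0.49 to 0.13). Bmpr1b was highest in LSO and lowest in VCN at both ages, with VCN minus LSO at -0.21 (-0.54 to 0.12). On the representing sets, Bmpr1b and Tgfbr1 were the only receptors with the same order of the 3 nuclei at both ages. Other probe sets of both genes did not keep this order. At P3, LSO was lowest on both other Bmpr1b sets (7.20 and 7.34) and on 1 other Tgfbr1 set (7.02). MNTB was highest on each of these sets at P3, at 7.71, 8.01 and 7.27. Acvrl1 also read highest in MNTB at both ages on its representing set, with MNTB minus LSO at 0.16 (-0.23 to 0.54). On the second Acvrl1 set LSO was above MNTB at both ages, with 6.61 and 6.42 at P14 and 6.02 and 5.89 at P3. For the median of the Acvrl1 probe sets MNTB minus LSO was -0.0027. Acvr2a read lowest in MNTB at both ages on both probe sets of its own. On its representing set MNTB minus LSO was -0.14 (-0.41 to 0.12). Acvr1 had MNTB minus LSO at -0.05 on its representing set. For the median of the Acvr1 probe sets this difference was -0.46 and did not pass (limma, adjusted p = 0.601). Another Acvr1 set read 7.09 in MNTB and 7.57 in LSO at P14, and 7.04 and 7.48 at P3. Over the representing sets of the 10 genes, MNTB minus LSO ran from -0.22 to 0.38. The range was -0.17 to 0.34 for MNTB minus VCN and -0.21 to 0.07 for VCN minus LSO. A nucleus difference of the size of the age difference of Acvr2a lies outside every 95% interval of the representing sets, while differences of up to 0.84 remain within the widest.

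**Figure D3:**
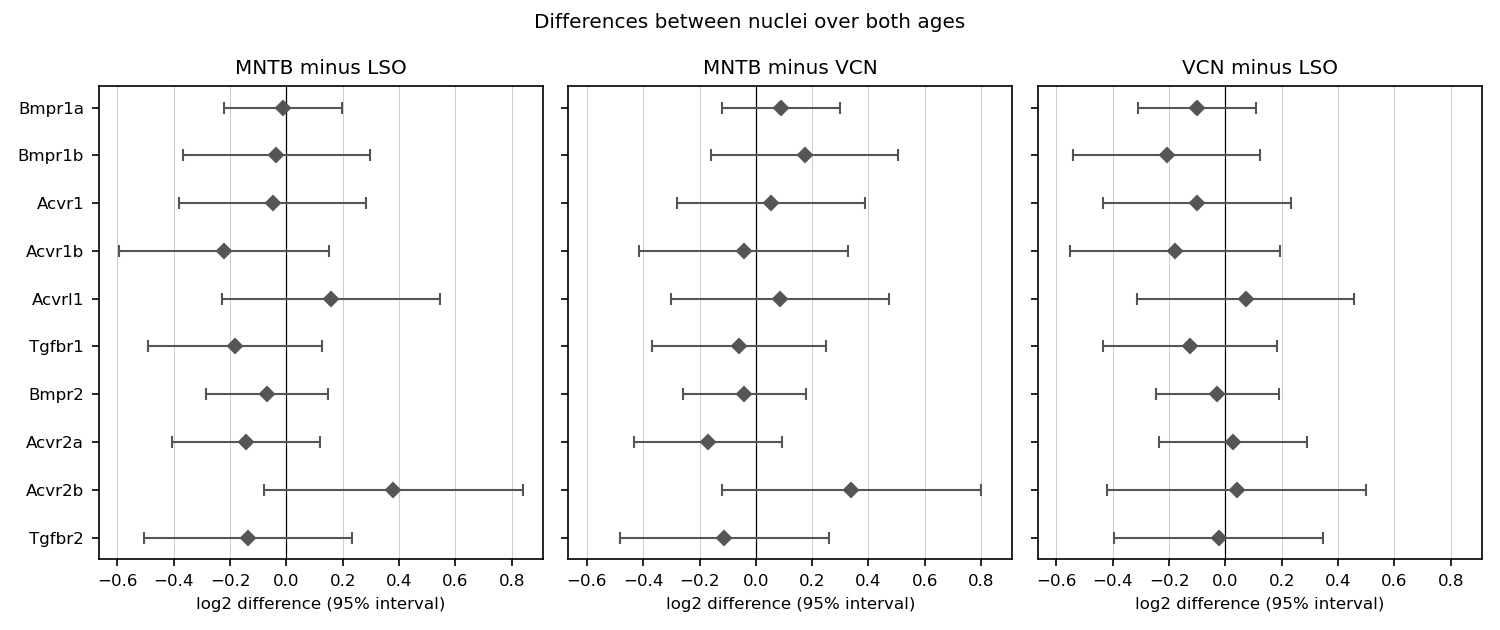
Differences between nuclei (log2, over both ages) of the 10 receptor genes, with MNTB minus LSO on the left, MNTB minus VCN in the middle and VCN minus LSO on the right. Bars are 95% intervals of the limma fit and all of them include 0; the point farthest from 0 is Acvr2b in MNTB minus LSO, at 0.38.

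Cell type markers moved with age alongside the receptors. Of 11 tested endothelial markers 10 were higher at P14 and none lower, with a mean level of 8.35 to 8.48 over the P14 arrays and 7.15 to 7.49 over the P3 arrays. Cldn5, a tight junction protein, was higher by 0.51 (adjusted p = 0.0204) and the VEGF receptor gene Flt1 by 1.34 (adjusted p = 0.000808), while Cdh5 at 0.36 missed the threshold (adjusted p = 0.0563). Pericyte and smooth muscle markers were higher in 5 of 9, with mean levels of 8.44 to 8.51 at P14 and 7.88 to 8.06 at P3. Microglial markers were higher in 4 of 10, with 8.48 to 8.80 at P14 and 7.66 to 8.28 at P3. Meningeal and fibroblast markers were higher in 6 of 6, with 8.13 to 8.82 at P14 and 6.68 to 6.71 at P3. Col3a1, Dcn and Slc6a13 of this list and Slco1a4 of the endothelial list had P3 means below the filter on low values (5.57). These genes were tested only through their P14 values, which favours calls of higher at P14. Acvrl1 and Tgfbr2 were higher at P14, as were the mean levels of these lists and of the myelin list. The microglial list changed least in MNTB, where its mean was 8.48 at P14 and 8.28 at P3. It was 8.64 and 7.66 in VCN and 8.80 and 8.05 in LSO. In MNTB Tgfbr2 was higher at P14 by 0.84 and Acvrl1 by 0.76. The mean level of the astrocyte list was higher at P14 as well, at 10.94 to 11.21 against 10.48 to 10.78 at P3. The part of these cell types in the rise of both receptors was not tested.

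In the other direction, 7 of 7 tested markers of dividing cells were lower at P14, with mean levels of 7.80 to 8.24 at P14 and 8.78 to 9.06 at P3. Neuronal markers were lower in 6 of 8 and higher in 1, with 10.73 to 11.14 at P14 and 11.60 to 11.64 at P3. Gap43, a growth cone protein, was lower, at -1.84 (adjusted p = 0.0104), whereas the synaptic gene Snap25 was higher by 0.28 (adjusted p = 0.0149). Acvr2a, Acvr2b, Acvr1b and Bmpr1a moved with these lists, whose part in the fall of the 4 receptors was not tested. Myelin markers were higher in 9 of 9, with mean levels of 12.45 to 12.63 at P14 and 8.27 to 10.19 at P3. Mog and Ermn of the myelin list were tested only through their P14 values, as was Gjb6 of the astrocyte list. Of the remaining lists, oligodendrocyte precursor markers were higher in 4 and lower in 1 of 7, astrocyte markers higher in 4 and lower in 2 of 10, and glycinergic and GABAergic markers higher in 1 of 5. The single tested markers of glutamatergic neurons and of the choroid plexus did not pass. No marker on any list lay within the range of the unspiked controls on all 6 arrays. Cspg4 stands in both the pericyte and the precursor lists.

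**Figure D4:**
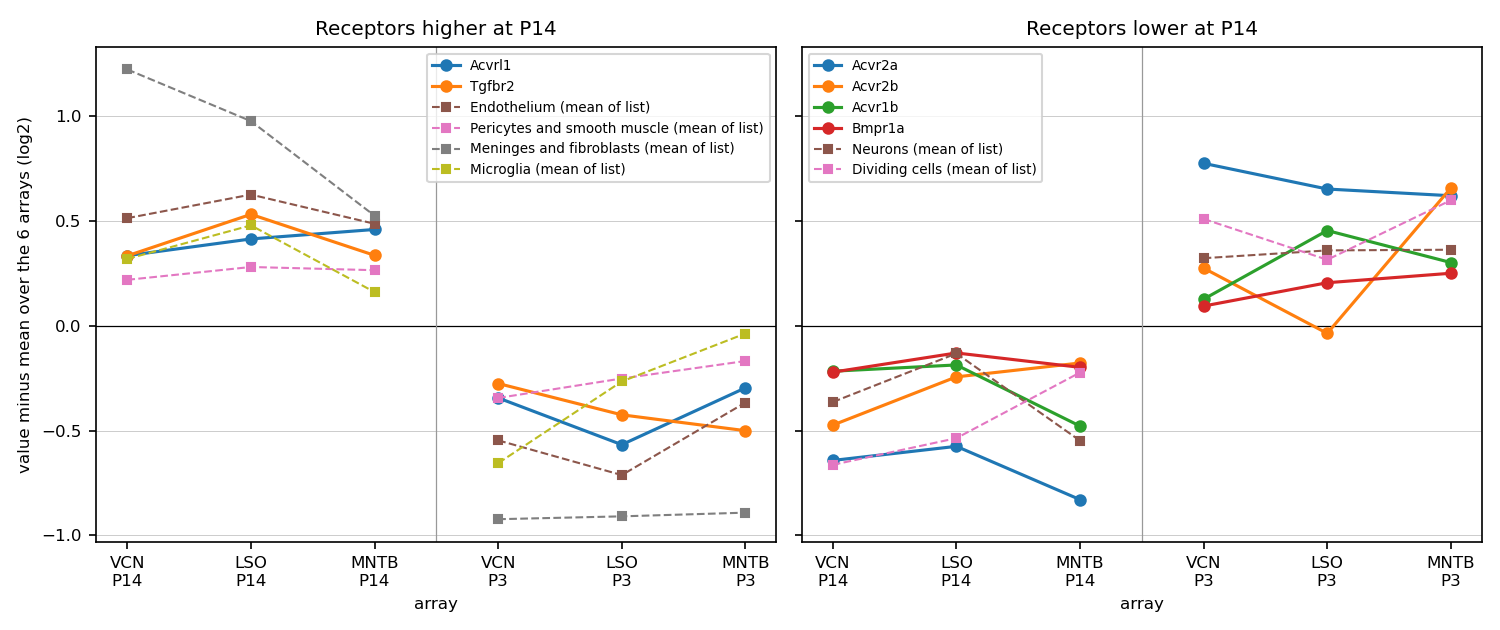
Receptor values (solid lines, circles) and mean levels of marker lists (dashed lines, squares), each centred on its own mean over the 6 arrays (log2), with the P14 arrays left of the grey line and the P3 arrays right of it. On the left, Acvrl1 and Tgfbr2 lie above 0 at P14 with the endothelial, pericyte, meningeal and microglial lists. On the right, Acvr2a, Acvr2b, Acvr1b and Bmpr1a lie below 0 at P14 with the neuronal and dividing cell lists. The myelin and astrocyte lists, whose mean levels were also higher at P14, are not drawn.

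Genes with the most similar pattern were sought for the 4 receptors whose values spanned at least 1 log2 unit, by the root mean square difference of centred values over the 6 arrays. For Acvr2a these were Tmem201 (0.04 log2 units) and Cacna1b (0.06), a presynaptic calcium channel gene, with age differences of -1.32 and -1.41. For Acvr2b they were the collagen gene Col11a1 and Cacng4, an AMPA receptor auxiliary subunit (0.09 each). For Acvrl1 they were Ctnnal1 and Rnaseh1 (0.06 each), and for Tgfbr2 they were Fgfr1op2 (0.05) and Ust (0.06). Acvrl1 and Tgfbr2 differed from each other by 0.13 on this measure, and Acvr2a and Acvr2b by 0.46. Many genes differed with age in all nuclei, so near patterns are common over so few arrays.

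The rest of the pathway was counted over 9 lists with 99 genes, of which 74 were tested. Of these, 16 were higher and 13 lower at P14, which is 39.2% against the 41.0% of all tested genes. Their median age difference was 0.08. The largest changes that passed were those of a co-receptor (Tdgf1), an inhibitory Smad (Smad7) and a further type I receptor (Acvr1c). Of the 29 genes that passed, 18 also passed without each array in turn. The other 11 were Bambi, Bmp7, Inha, Inhbb, Lefty2, Tgfb2, Grem1, Smad2, Smad5, Zfyve9 and Id4, whose highest adjusted p with 1 array left out ran from 0.0533 to 0.236.

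Of the remaining type I and type II receptors, Acvr1c was higher and Amhr2 did not pass (median of the list 1.05). Acvr1c, which encodes ALK7, a type I receptor for Nodal and some activins and GDFs, had 6.79, 6.99 and 6.70 at P14 in VCN, LSO and MNTB, against 4.86, 4.76 and 4.79 at P3. The ages lay far apart on all arrays, and the difference was 2.02 ± 0.13 (SE, adjusted p = 0.000456). The P3 values of Acvr1c all lay below the filter value of 5.57, so the gene was tested only through its P14 values. The other Acvr1c probe sets read 4.48 to 6.34 at P14 and 3.09 to 4.03 at P3, where they were within the range of the unspiked controls.

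Among 8 tested co-receptors, 2 were higher and 2 lower (median 0.08). Tdgf1, a co-receptor for Nodal, was higher by 2.81 ± 0.30 (SE, adjusted p = 0.00142), with 7.74 to 8.79 at P14 and 5.04 to 6.10 at P3. RefSeq also lists pseudogenes of Tdgf1, and whether its probe set also reads them was not tested. Bambi, a receptor-like protein without a kinase domain that dampens signalling, was higher by 0.83 (adjusted p = 0.022). The BMP co-receptor genes Hjv and Rgma were lower, with -1.12 (adjusted p = 0.00465) and -0.81 (adjusted p = 0.00731). The probe sets of Hjv gave -1.12 and -0.59, and its P14 mean lay below the filter value, so it was tested only through its P3 values.

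Among 12 tested BMP and GDF ligands, 3 were higher and 1 lower (median 0.13). Bmp5 was higher by 1.86, Bmp4 by 1.69 and Bmp6 by 1.01 (adjusted p = 0.00119, 0.00329 and 0.00533), with 0.72 to 1.86 over the 3 probe sets of Bmp5, while Bmp7 was lower, at -0.50 (adjusted p = 0.0318). Among 5 tested activin, inhibin and Nodal-type ligands, 1 was higher and 2 lower (median 0.10). Inhbb, which forms activin B, was higher by 1.65 (adjusted p = 0.0276), with 0.72 to 1.65 over its probe sets, and its LSO values, 8.79 at P14 and 8.60 at P3, differed least. Inha, the inhibin alpha subunit, and Lefty2, a Nodal antagonist, were lower, at -0.63 (adjusted p = 0.00901) and -0.78 (adjusted p = 0.0291). Among 5 tested TGF-beta ligands and latency proteins, 2 were higher and 1 lower (median 0.49). The latency proteins Ltbp1 and Ltbp4 were higher by 1.28 and 1.20 (adjusted p = 0.00364 and 0.00191), although the 3 probe sets of Ltbp1 ran from -0.03 to 1.28. The ligand Tgfb2 was lower, at -0.58 (adjusted p = 0.0124).

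Of 11 tested extracellular antagonists, 1 was higher and 2 lower (median -0.04). The follistatin-related Fstl1 was higher by 0.86 (adjusted p = 0.00545), and the BMP-binding proteins Bmper and Grem1 were lower, at -0.94 and -0.93 (adjusted p = 0.00431 and 0.0185). Of 9 tested Smads and nuclear partners, 1 was higher and 3 lower (median -0.27). Smad7, which blocks type I receptors, had 8.14, 8.21 and 8.48 at P14 in VCN, LSO and MNTB, against 5.59, 5.89 and 5.57 at P3. Its ages lay more than 2 log2 units apart, and the difference was 2.59 ± 0.15 (SE, adjusted p = 0.000389). Smad1, Smad5 and Smad2, which carry the signal of these receptors, were lower, at -0.44, -0.41 and -0.40 (adjusted p = 0.00571, 0.0315 and 0.0464). Smad6, the other inhibitory Smad, stayed within the range of the unspiked controls on all arrays.

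Of 12 tested receptor adaptors and ubiquitin ligases, 2 were higher and 1 lower (median 0.10). Fkbp1a, which holds type I receptors inactive, was higher by 0.49 ± 0.06 (SE, adjusted p = 0.00171) and Zfyve9, the Smad anchor SARA, by 0.34 (adjusted p = 0.0468). The ubiquitin ligase gene Nedd4l was lower, at -0.90 (adjusted p = 0.00306), with -0.90 to 0.01 over its 6 probe sets. Of 10 tested target genes, 3 were higher and 1 lower (median 0.05). Pmepa1, a TGF-beta target that limits the pathway, was higher by 1.63 ± 0.09 (SE, adjusted p = 0.000389) and had 11.26 to 11.58 at P14, against 9.73 to 9.76 at P3. Ccn2 was higher by 1.13 (adjusted p = 0.00668) and Hey1 by 0.38 (adjusted p = 0.00979). Id4 was lower, at -0.27 (adjusted p = 0.0134), with -1.01 to -0.13 over its 3 probe sets. The BMP target Id1 had 7.74 to 8.01 at P14 and 7.46 to 8.29 at P3 and did not pass (-0.02, adjusted p = 0.94).

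**Figure D5:**
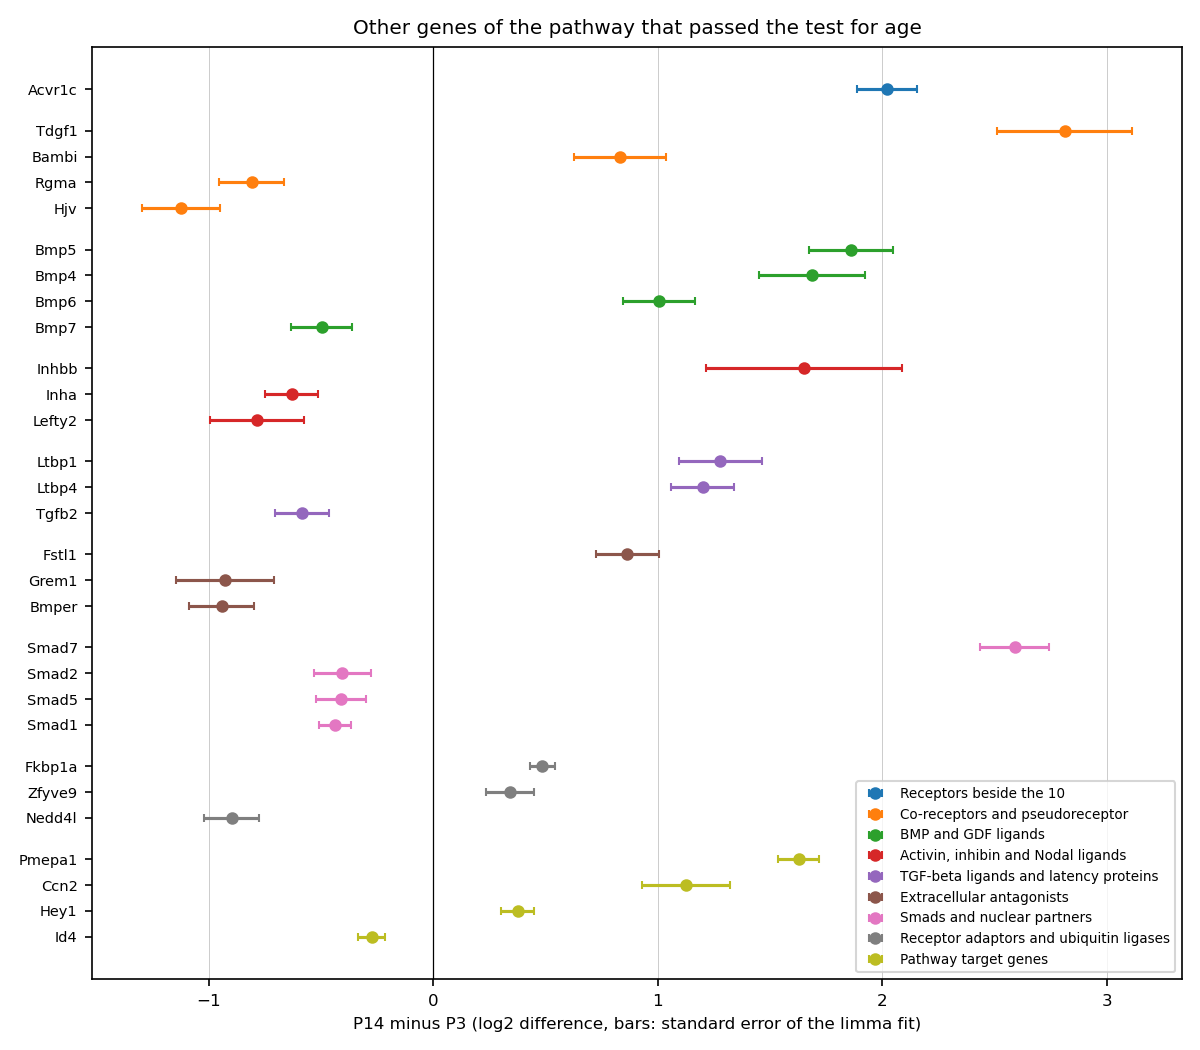
Age difference (P14 minus P3, log2) of the 29 pathway genes beside the 10 receptors that passed the test, in colours by list. Bars are standard errors of the limma fit; Tdgf1, Smad7 and Acvr1c lie farthest to the right, at 2.81, 2.59 and 2.02, and Hjv farthest to the left, at -1.12.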

How the data were processed

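The authors deposited 1 log2 expression value per probe set and array, made with RMA per the submitters' processing notes. The RMA version is not given in the sources here. RNA was amplified before labelling, per the labels' protocols. The 45101 probe sets include 64 control sets, and the annotation gives 1 gene to 34945 of them. For each gene the probe set with the highest mean was used (names ending in _x_at left out where another existed). Genes with a mean at or above the 40th percentile (5.57) were tested, 12958 of 18193.

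The model, fitted in limma 3.58.1 (R 4.3.3), held additive terms for age and nucleus and an intensity trend (2 residual and 3.95 prior degrees of freedom), two-sided, with Benjamini-Hochberg adjustment over all tested genes. Per probe set, all 27000 past the filter were adjusted together. The steps were also run on simulated arrays with independent noise and few changed genes. In these data 41.0% of tested genes passed for age, so that run does not show how the fit performs here. The number of arrays limits the precision. No batch was tested, since no scan date was at hand.

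All receptors are named, up to 2 genes of like pattern, up to 4 passing genes of each of 9 pathway lists and up to 3 of each of 12 marker lists. In addition Id1, Smad6, Amhr2, the endothelial marker Slco1a4 and the markers of tissue identity were named after their values were seen. The members and lists were chosen with earlier results of these data known. Alternatives covered the filter, the probe set rule, scaling, the intensity trend, the additive term, a floor and leaving out each array. Promoter windows are RefSeq's, on GRCm38.p6.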

Additional observations from a re-analysis of the deposited data

Results flagged for a closer look

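Some receptor probe sets were higher at P14 in 1 nucleus and lower in another. With 1 array per nucleus and age this difference between nuclei was not tested, and none of these probe sets passed for age. The size given is the largest minus the smallest age difference over the 3 nuclei. Bmpr1b had the widest, at 1.10 and 0.89 log2 units on the 2 probe sets that do not represent the gene. On these sets LSO was higher at P14 by 0.70 and 0.53, whereas MNTB was lower, with differences of -0.40 and -0.36. The representing set of Bmpr1b had a smaller spread of 0.32, and there LSO was lower at P14 (-0.13), so the probe sets of Bmpr1b do not give 1 pattern over the nuclei. The spread was 0.59 on the second tested set of Tgfbr2, and 0.59 and 0.34 on the non-representing sets of Tgfbr1. It was 0.45 on 1 set of Acvr1, 0.31 on the second set of Bmpr2, 0.16 on the representing set of Bmpr2 and 0.24 on the second set of Acvr1b.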

How the results depend on the processing

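The 6 receptor calls for age held without the filter, with arrays rescaled, without the intensity trend or the nucleus term and with a floor; the filter at the 60th percentile left 5, since Acvrl1 was no longer tested. With the median of each gene's probe sets 3 receptors passed (Acvr2a, Acvrl1 and Bmpr1a), and leaving out 1 array in turn left 3 to 5. For receptor probe sets, leaving out 1 array left 7 to 10. Over all genes the age count was 5317 and ran from 3142 to 4710 with 1 array left out. It split into 3029 higher and 2288 lower (57.0% higher), against 2432 and 3004 (44.7% higher) when arrays were centred on the median of the tested genes, a scaling chosen after seeing the data; the 6 receptor calls held there. No receptor passed between nuclei under any alternative that was run. Over all genes, MNTB minus LSO had 21 calls, 1 without the age term and 4 to 99 with 1 array left out. MNTB minus VCN had 78, with 51 under the filter at the 60th percentile, 0 without the age term and 17 to 215 with 1 array left out. VCN minus LSO had 48, with 29, 1 and 4 to 159 under the same settings. Of 596 receptor values under alternatives 51 changed sign, none of them past the threshold, and 13 lost their call. The age fit already compares the ages within each nucleus, and 6 receptors passed without that term too. Pairing by animal was not possible, since it is not stated whether the nuclei of an age share animals. The limits are 1 pool per nucleus and age, 2 residual degrees of freedom and probe sets of 1 gene that differ in size for Acvr1b, Acvr2a and Tgfbr2.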
